A study of Mus musculus with 17 samples.

Results

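The Ifitm genes encode interferon-induced transmembrane proteins, small proteins of the plasma and endosomal membranes. Described here are 4 of them, Ifitm1, Ifitm2, Ifitm3 and Ifitm6, taken by symbol from a table of 35321 genes measured in 17 libraries. The family was selected on the counts themselves, since earlier results had singled out Ifitm1 and Ifitm3 by their log2 change from PBS 24 h after LPS, with and without antibody. All comparisons that use the 24 h libraries are therefore given as description, without a test of the members. They are those of 24 h with PBS, of 72 h with 24 h, and of LPS with and without antibody at 24 h. The change in the antibody difference from 24 h to 72 h is another. The remaining comparisons are tested.

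RNA carrying a poly(A) tail was sequenced from HSPC, the hematopoietic stem and progenitor cells from which blood cells descend, sorted from the bone marrow of wild-type C57BL/6J mice. The mice received an intraperitoneal injection of PBS (5 libraries, titled as day 0), LPS for 24 h (3 libraries), LPS with a blocking antibody against IL-10R, the receptor of interleukin-10, for 24 h (3), LPS for 72 h (3), or LPS with that antibody for 72 h (3). LPS, lipopolysaccharide, is a bacterial outer-membrane component that triggers inflammation, and IL-10R carries an anti-inflammatory signal. The series design gives 5 µg of LPS and 100 µg of antibody, whereas the sample protocol gives the same figures in mg, and age and sex are not given in the sources used here. No group received the antibody without LPS, and nothing in the labels says whether the libraries of a group came from separate mice, so the p-values measure only the spread between these libraries, which may be technical.

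As background, IFITM proteins hold back many enveloped viruses at the step where the viral and cellular membranes fuse. IFITM3 acts mainly in late endosomes and lysosomes, IFITM1 more at the cell surface, and IFITM2 resembles IFITM3. Ifitm1 and Ifitm3 are also known as genes that stem cells express without an interferon stimulus, and Ifitm6 as a gene expressed in myeloid cells such as neutrophils and macrophages. Type I interferons act through a receptor encoded by Ifnar1 and Ifnar2, and the DNA element of their target genes is the interferon-stimulated response element (ISRE). The element of the interferon-gamma response is the gamma-activated site (GAS). Irf7, a transcription factor gene that amplifies the type I response, was used as the reference interferon gene.

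The 4 genes lie side by side on chromosome 7 (GRCm38, GENCODE M21 models) within 63.1 kb, chr7:140954837-141017924. Ifitm2 (ENSMUSG00000060591) lies on the minus strand at chr7:140954837-140955987 with 2 exons. Ifitm1 (ENSMUSG00000025491), the only member on the plus strand, lies at chr7:140967221-140969825. Ifitm3 (ENSMUSG00000025492) has 2 exons at chr7:141009586-141010770 on the minus strand, and Ifitm6 (ENSMUSG00000059108) lies at chr7:141015699-141017924, also on the minus strand. No other protein-coding gene lies between Ifitm1 and Ifitm6.

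The promoters are shown because the members differed in their values and, in these windows, in the letters of elements that interferon signalling uses. All 4 genes matched the RefSeq promoter table (GRCm38.p6), whose windows run from 250 bases before to 50 bases after the gene start. Each sequence below is read 5′ to 3′ on the gene's own strand from position -120, counted from the RefSeq start, and capitals mark the motif matches. The stretches are chr7:140967956-140968027 for Ifitm1 (plus strand), and on the minus strand chr7:140955988-140956081 for Ifitm2, chr7:141010716-141010864 for Ifitm3 and chr7:141016893-141017012 for Ifitm6.
Ifitm1: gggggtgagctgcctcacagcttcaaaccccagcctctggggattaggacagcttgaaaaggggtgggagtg
Ifitm2: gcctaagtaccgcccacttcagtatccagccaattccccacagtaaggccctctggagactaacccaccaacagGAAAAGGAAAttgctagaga
Ifitm3: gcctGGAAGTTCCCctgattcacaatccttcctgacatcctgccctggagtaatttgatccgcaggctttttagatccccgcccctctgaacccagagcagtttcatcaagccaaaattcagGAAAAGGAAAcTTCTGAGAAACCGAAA
Ifitm6: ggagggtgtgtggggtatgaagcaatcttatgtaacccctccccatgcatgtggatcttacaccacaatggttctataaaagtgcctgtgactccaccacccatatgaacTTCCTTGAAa

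In all, 3 motifs were searched on both strands of the whole 300-base windows. The ISRE core GAAANNGAAA occurred in 3.44% of the 32841 promoters in the table, the GAS TTCNNNGAA in 8.30%, and the motif of NF-kB, a factor that LPS signalling activates, in 8.46%. Ifitm3 held 2 ISRE cores, at 3 to 12 and at 20 to 29 bases after the start, with a GAS at 14 to 22 that overlaps the second core. An NF-kB match lay further upstream in Ifitm3, at -116 to -107. Ifitm2 held 1 ISRE core at -46 to -37 with the same 10 letters as the first core of Ifitm3, GAAAAGGAAA. Ifitm6 held a GAS at -10 to -2, and none of these 3 letter patterns occurs in the Ifitm1 window. The Ifitm1 window, chr7:140967826-140968125, lies wholly inside its GENCODE model, which starts at 140967221. So does the Ifitm6 window, chr7:141016843-141017142, in a minus-strand model that starts at 141017924. The sequence before these GENCODE starts was thus not searched, whereas the windows of Ifitm2 and Ifitm3 include the start of their models. For comparison, 11 of the 20 type I interferon response genes with a window held an ISRE core, and 4 held a GAS. Of the 12 interferon-gamma response genes with a window, 9 held an ISRE core and 5 a GAS. A match is a description of letters, and its absence in 1 window says nothing about other parts of the gene.

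**Figure D1:**
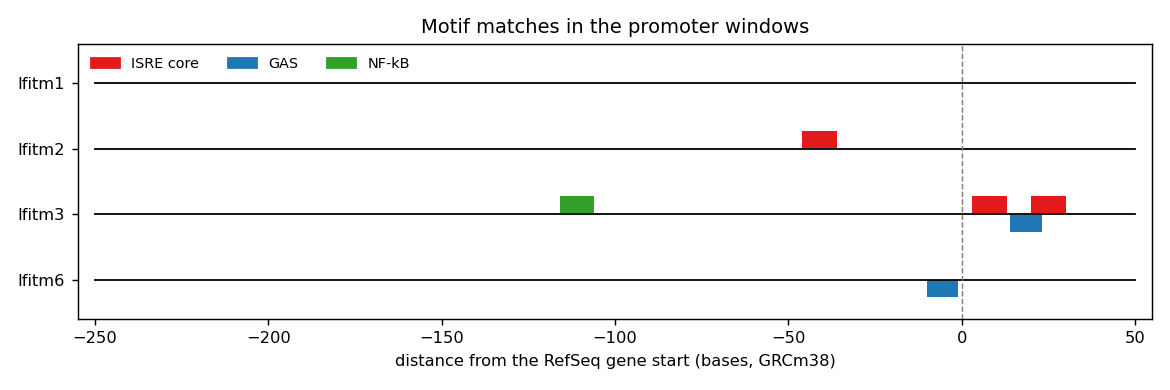
Positions of motif matches in the 300-base promoter windows of the 4 genes, in bases from the RefSeq start (dashed line); coloured blocks are matches to the ISRE core (red), GAS (blue) and NF-kB (green) patterns. Ifitm3 has 4 matches, Ifitm2 and Ifitm6 have 1 each and the Ifitm1 line is empty.

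Library totals ran from 10516722 to 16006001 counts, and 14920 genes passed the low-count filter and were tested, all 4 members among them. Levels below are CPM, read counts scaled to a common library total after TMM, a correction for differing composition. The TMM factor was 0.799 for LPS 24 h library 1 and 0.947 to 1.12 for the others. The progenitor markers Kit, Cd34 and Flt3 were detected in every library, Kit at 228 to 589 CPM, Cd34 at 234 to 848 CPM and Flt3 at 51.5 to 619 CPM. Flt3 was at a mean of 446 CPM in PBS and of 81.6 CPM in LPS 24 h. Ly6a, another progenitor marker, went the other way, from a mean of 61.7 CPM in PBS to 162 CPM in LPS 24 h. Of the 11 stem and progenitor markers, 2 had a log2 change above 0 in LPS 24 h vs PBS. RNA of mature lineages was present as well: the summed B-lymphoid markers ran from 373 to 1325 CPM in PBS and from 69.0 to 88.9 CPM in LPS 24 h. In bulk RNA, fewer cells of a type and less RNA per cell cannot be told apart.

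Ifitm1 was at 225, 185, 138, 97.9 and 238 CPM in the 5 PBS libraries. It was at 768, 364 and 629 CPM in LPS 24 h, and at 662, 777 and 511 CPM in LPS with antibody at 24 h. It was at 265, 409 and 201 CPM in LPS 72 h, and at 718, 309 and 612 CPM in LPS with antibody at 72 h. All libraries of 3 groups, both 24 h groups and the antibody group at 72 h, lay above every PBS library, whereas LPS 72 h overlapped PBS. By group mean, the order was LPS with antibody at 24 h (650 ± 133 CPM, SD, n = 3), LPS 24 h (587 ± 205, n = 3), LPS with antibody at 72 h (546 ± 212, n = 3), LPS 72 h (291 ± 106, n = 3) and PBS (177 ± 58.9, n = 5). The first 3 of these means differ by less than their SDs.

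Ifitm3 was at 280, 198, 119, 154 and 167 CPM in the PBS libraries and at 803, 359 and 628 CPM in LPS 24 h. With antibody at 24 h it was at 910, 636 and 239 CPM, so that library 3 lay inside the PBS range. LPS 72 h libraries were at 192, 185 and 148 CPM, all inside the PBS range. With antibody at 72 h, library 1 was at 1126 CPM, the highest Ifitm3 value of the 17, and libraries 2 and 3 were at 337 and 291 CPM. The group means were 184 ± 61.0 CPM in PBS (SD, n = 5), 597 ± 224 in LPS 24 h, 595 ± 337 with antibody at 24 h, 175 ± 23.5 in LPS 72 h and 585 ± 470 with antibody at 72 h (SD, n = 3 each). The 3 raised groups thus had nearly equal means but very unequal spread, with an SD of 37.5% of the mean in LPS 24 h and 80.3% with antibody at 72 h.

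Ifitm2 varied least. It was at 216 to 243 CPM in PBS (median 238), at 404, 275 and 324 CPM in LPS 24 h, and at 319, 328 and 327 CPM with antibody at 24 h. It was at 262, 312 and 230 CPM in LPS 72 h, and at 362, 315 and 300 CPM with antibody at 72 h. As for Ifitm1, every library of both 24 h groups and of the antibody group at 72 h lay above every PBS library, but by a much smaller step. The Ifitm2 count is uncertain. The gene model Gm45717, on the same strand, has 495 exonic bases, of which 268 are exonic in Ifitm2 and 227 in Ifitm5, leaving 0 of its own. Gm45717 nevertheless held 72.7% to 81.4% as many counts as Ifitm2 in the 17 libraries, and 48.5% of the 50-base words of Ifitm2 transcripts also occur in transcripts of other genes. That share was 10.02% for Ifitm3, 5.02% for Ifitm1 and 0% for Ifitm6.

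Ifitm6 was close to the low end of what was tested. It was at 2.07, 18.3, 2.58, 2.38 and 1.40 CPM in PBS, at 6.95, 8.38 and 3.95 CPM in LPS 24 h, and at 8.68, 13.2 and 3.17 CPM with antibody at 24 h. It was at 4.22, 4.99 and 8.56 CPM in LPS 72 h, and at 7.74, 5.23 and 3.68 CPM with antibody at 72 h. PBS library 2 lay above all 16 other libraries, and all 12 LPS libraries lay above the other 4 PBS libraries. In PBS library 2 the 10 neutrophil markers summed to 1589 CPM, against 40.2 to 259 CPM in the other PBS libraries. Ly6g, a defining neutrophil marker, was at 4.80 CPM there and at 0 in the other 4. The 12 monocyte and macrophage markers summed to 3066 CPM in that library, against 662 to 1264 CPM. The part of such cells in the Ifitm6 level was not tested.

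**Figure D2:**
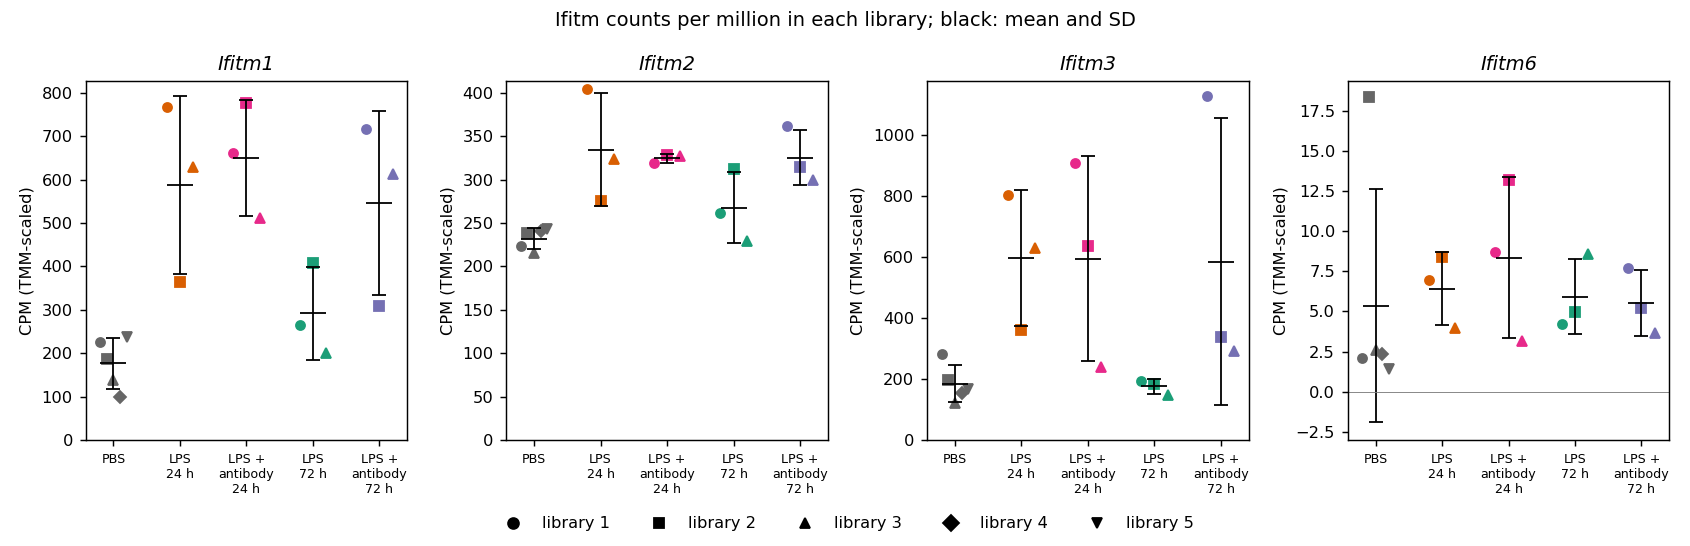
CPM of each Ifitm gene (vertical axes, a separate scale for each gene) in the 17 libraries by group; symbols give the library number within a group, and black bars give the mean and SD. Ifitm1, Ifitm2 and Ifitm3 are high in LPS 24 h and overlap PBS in LPS 72 h, 1 antibody library at 72 h reaches 1126 CPM for Ifitm3, and PBS library 2 stands alone for Ifitm6 at 18.3 CPM.

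Levels of different genes were compared per kilobase of exon. In PBS, Ifitm2 was highest at 355 ± 18.6 CPM per kb, followed by Ifitm3 at 271 ± 89.9, Ifitm1 at 162 ± 53.8 and Ifitm6 at 5.92 ± 8.04 (SD, n = 5). The PBS ranges of Ifitm2 (329 to 371) and Ifitm3 (176 to 414) overlapped, as did those of Ifitm3 and Ifitm1. In LPS 24 h the order was Ifitm3 at 880 ± 330 CPM per kb, Ifitm1 at 536 ± 188, Ifitm2 at 511 ± 99.5 and Ifitm6 at 7.10 ± 2.49 (SD, n = 3), with overlapping ranges for the first 3. In LPS 72 h, Ifitm2 was again first at 409 ± 63.2 CPM per kb, with Ifitm1 at 266 ± 97.3 and Ifitm3 at 258 ± 34.6. The 4 genes together held 476 to 730 CPM in PBS and 1006 to 1983 CPM in LPS 24 h.

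At 24 h after LPS, the comparison that brought the family to notice, Ifitm1 was 1.73 higher than in PBS on the log2 scale (SE 0.328) and Ifitm3 was 1.70 higher (SE 0.442), both more than 3 times the PBS level. Ifitm2 was 0.53 higher (SE 0.125) and Ifitm6 0.27 higher (SE 0.706). The groups did not overlap for Ifitm1, Ifitm2 and Ifitm3, which was also true, in the higher direction, of 20.6% of all genes tested. With antibody at 24 h the differences from the same PBS libraries were 1.88 (SE 0.328) for Ifitm1, 0.48 (SE 0.125) for Ifitm2, 1.70 (SE 0.442) for Ifitm3 and 0.65 (SE 0.697) for Ifitm6. Here Ifitm1 and Ifitm2 did not overlap PBS, as for 14.2% of genes in the higher direction. These values chose 2 of the members, so they carry no test. Without PBS library 2, the Ifitm6 differences were 1.60 (SE 0.435) for LPS and 1.98 (SE 0.435) for LPS with antibody. Cell type markers moved in the same comparison. Of the stem and progenitor markers, 7 of 11 were lower in LPS 24 h than in PBS (adjusted p under 0.05 in edgeR), their sum running from 1093 to 1246 CPM against 1749 to 2577 CPM. Of the monocyte and macrophage markers 9 of 12 were lower, with sums of 406 to 783 CPM against 662 to 3066 CPM. Lower calls were also made for 3 of 7 B-lymphoid, 3 of 7 T and NK, 2 of 5 megakaryocyte, 1 of 8 erythroid and 1 of 4 tested endothelial and stromal markers. Of the basophil and mast cell markers 1 of 5 was higher, and 0 of 9 tested neutrophil markers were called. Among all genes, 18.5% were called lower and 19.1% higher in LPS 24 h than in PBS. These calls take no account of the library numbers, although deviations from the group means correlated in same-numbered libraries (0.191, 0.188 and 0.158). The part of the marker shifts in the Ifitm levels was not tested.

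By 72 h after LPS alone, none of the 4 genes differed from PBS in edgeR's quasi-likelihood test. The log2 difference was 0.72 for Ifitm1 (SE 0.330, adjusted p = 0.425, unadjusted p = 0.0448), 0.21 for Ifitm2 (SE 0.126, adjusted p = 0.548), -0.07 for Ifitm3 (SE 0.454, adjusted p = 0.966) and 0.16 for Ifitm6 (SE 0.71, adjusted p = 0.946). Without PBS library 2 the Ifitm6 difference was 1.48 (SE 0.436, adjusted p = 0.280). Almost no gene passed in this comparison (0.0201% of those tested, 3 genes).

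Between 24 h and 72 h of LPS alone, the log2 difference of Ifitm3 was -1.77 (SE 0.520), and its 3 libraries at 72 h all lay below its 3 at 24 h. The difference was -1.01 for Ifitm1 (SE 0.378) and -0.32 for Ifitm2 (SE 0.141), both with overlapping groups, and -0.11 for Ifitm6 (SE 0.795). Of all genes, 23% did not overlap in the lower direction. The members were chosen for their high values in these 24 h libraries, so the differences are a description with no test. Leaving out 1 library in turn gave -2.03 to -1.48 for Ifitm3. Between these times 6 of 11 stem and progenitor, 2 of 12 monocyte and macrophage, 3 of 7 T and NK, 1 of 7 B-lymphoid and 1 of 4 tested endothelial and stromal markers rose (adjusted p under 0.05 in edgeR). In the other direction, 4 of 5 basophil and mast cell and 2 of 8 erythroid markers fell. Among all genes, 14.7% were called higher and 16.4% lower. The part of these markers in the Ifitm3 difference was not tested.

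With the antibody, 3 of the 4 genes were still higher than PBS at 72 h. Ifitm1 rose by 1.63 on the log2 scale (SE 0.328, adjusted p = 0.00936), Ifitm3 by 1.67 (SE 0.442, adjusted p = 0.0256) and Ifitm2 by 0.49 (SE 0.125, adjusted p = 0.0225) in edgeR's test. None of these 3 genes overlapped PBS, and Ifitm6 differed by 0.06 (SE 0.714, adjusted p = 0.964). Without PBS library 2 the Ifitm6 difference was 1.38 (SE 0.437, adjusted p = 0.0687). Of all genes, 6.81% were called higher and 13.4% did not overlap in the higher direction. The PBS libraries are shared with the 24 h comparisons that chose Ifitm1 and Ifitm3, so the tests against PBS are not independent of the choice. In this comparison 2 of 11 stem and progenitor, 2 of 12 monocyte and macrophage, 4 of 7 T and NK and 1 of 8 erythroid markers were lower. Among all genes, 6.43% were called lower. The part of these markers in the Ifitm levels was not tested. Without antibody library 1 at 72 h, the differences were 1.41 for Ifitm1, 0.80 for Ifitm3 (adjusted p = 0.206) and 0.43 for Ifitm2 (adjusted p = 0.0801), and Ifitm1 alone was called. Ifitm3 also missed the threshold narrowly without PBS library 2, 3 or 5 (adjusted p = 0.0525, 0.0530 and 0.0541).

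The antibody comparison asks whether blocking the interleukin-10 receptor altered the response to LPS. At 24 h the differences between LPS with and without antibody are a description for the members. Ifitm1 and Ifitm3 were chosen by their high values in both of these groups. The log2 differences were 0.15 for Ifitm1 (SE 0.374), -0.04 for Ifitm2 (SE 0.141), -0.0041 for Ifitm3 (SE 0.505) and 0.38 for Ifitm6 (SE 0.789). No gene at all passed in edgeR there (0%, with 273 genes at an unadjusted p under 0.05), and the SEs leave room for sizeable differences of Ifitm3 in either direction. At 72 h, Ifitm3 was higher with antibody by 1.74 on the log2 scale (SE 0.520, adjusted p = 0.0356, edgeR), and the groups did not overlap. Ifitm1 differed by 0.91 (SE 0.377, adjusted p = 0.110), Ifitm2 by 0.28 (SE 0.141, adjusted p = 0.180) and Ifitm6 by -0.10 (SE 0.799, adjusted p = 0.944). The background was 8.64% of genes called higher and 17.1% not overlapping in the higher direction. With antibody, 1 of 11 stem and progenitor, 2 of 12 monocyte and macrophage, 1 of 7 T and NK and 1 of 4 tested endothelial and stromal markers were lower, and 1 of 5 basophil and mast cell markers was higher. Among all genes, 6.48% were called lower. The part of these markers in the Ifitm3 difference was not tested.

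The Ifitm3 call at 72 h rested on few libraries. Without antibody library 1 the difference was 0.88 (adjusted p = 0.221), although libraries 2 and 3 still lay above all LPS 72 h libraries. It was also lost without LPS 72 h library 1, 2 or 3 (adjusted p = 0.103, 0.0913 and 0.0801) and in a fit of these 2 groups alone (adjusted p = 0.0763). The antibody difference at 72 h minus that at 24 h was 1.74 for Ifitm3 (SE 0.720) and 0.76 for Ifitm1 (SE 0.530). It uses the 24 h libraries that chose these genes, so it is a description with no test. Of all genes, 6.35% were called there. Between 24 h and 72 h with antibody no gene passed (0%). The members' differences there, again a description, include -0.25 for Ifitm1 (SE 0.374) and -0.03 for Ifitm3 (SE 0.505).

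**Figure D3:**
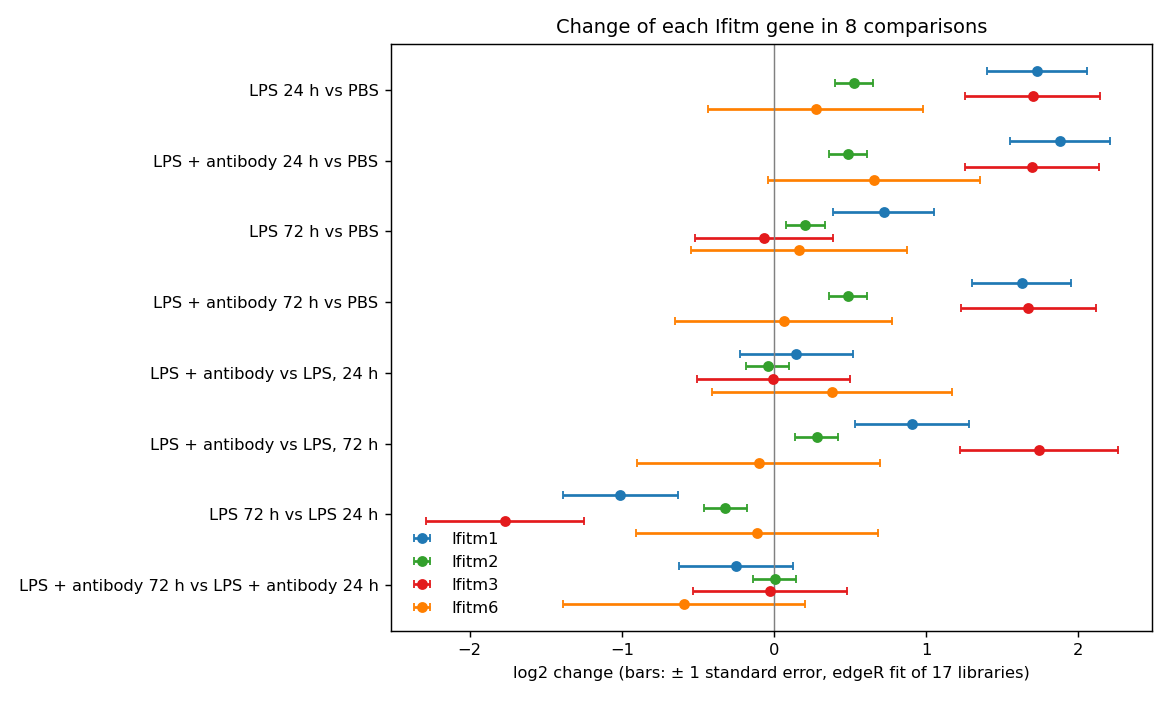
Log2 change of each Ifitm gene (horizontal axis) in 8 comparisons, with bars of ± 1 standard error from the edgeR fit of 17 libraries. The red Ifitm3 points lie near 1.7 in 4 comparisons, near 0 in LPS 72 h vs PBS, and at -1.77 for LPS 72 h vs LPS 24 h; the green Ifitm2 points stay within 0.53 of 0.

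Irf7 varied widely between libraries of a group. It was at 33.6 to 69.3 CPM in PBS (median 45.5), at 106, 61.5 and 163 CPM in LPS 24 h, and at 35.1, 16.6 and 17.9 CPM in LPS 72 h. With antibody it was at 453, 84.3 and 7.80 CPM at 24 h and at 493, 43.9 and 10.3 CPM at 72 h. Within each antibody group the libraries thus ran from far above to far below PBS. Against PBS, its log2 differences were 1.14 in LPS 24 h (SE 0.968, adjusted p = 0.371), 1.86 with antibody at 24 h (SE 0.965, adjusted p = 0.169), 1.87 with antibody at 72 h (SE 0.966, adjusted p = 0.197) and -1.11 in LPS 72 h (SE 1.05, adjusted p = 0.701).

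Within groups, Ifitm3 was higher in libraries with more Irf7, and for the other 3 members no such relation passed the test. Over the 17 libraries, deviations of log2 CPM from the group means gave Pearson's r = 0.896 for Ifitm3 (permutation p = 0.00066, adjusted over 4 relations 0.00264) and Spearman's rho = 0.900 (permutation p = 0.00056, adjusted 0.00224). Without the 2 libraries farthest from the median, antibody library 1 at 72 h and antibody library 3 at 24 h, r was 0.800, and over the 11 libraries without antibody it was 0.704. The r was 0.288 for Ifitm1 (permutation p = 0.348, rho 0.297), 0.251 for Ifitm2 (permutation p = 0.226, rho 0.338) and 0.390 for Ifitm6 (permutation p = 0.103, rho 0.316), with adjusted p of 0.348, 0.301 and 0.207. Libraries were permuted within groups, 2-sided, 100000 times. The permutation treats the 17 libraries as separate. Same-numbered antibody libraries at 24 h and 72 h went together, however, for number 1 (correlation of deviations 0.723) and number 3 (0.697), which hold the extremes of Irf7. The permutation p takes no account of this, and leaving out the 2 farthest libraries kept the other library of each number. The relation was proposed with these data in view, and whether Ifitm3 differs from Ifitm1 in its r was not tested. How many other genes go with Ifitm3 as closely within groups was not tested either, so the relation is not shown to be particular to Irf7.

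**Figure D4:**
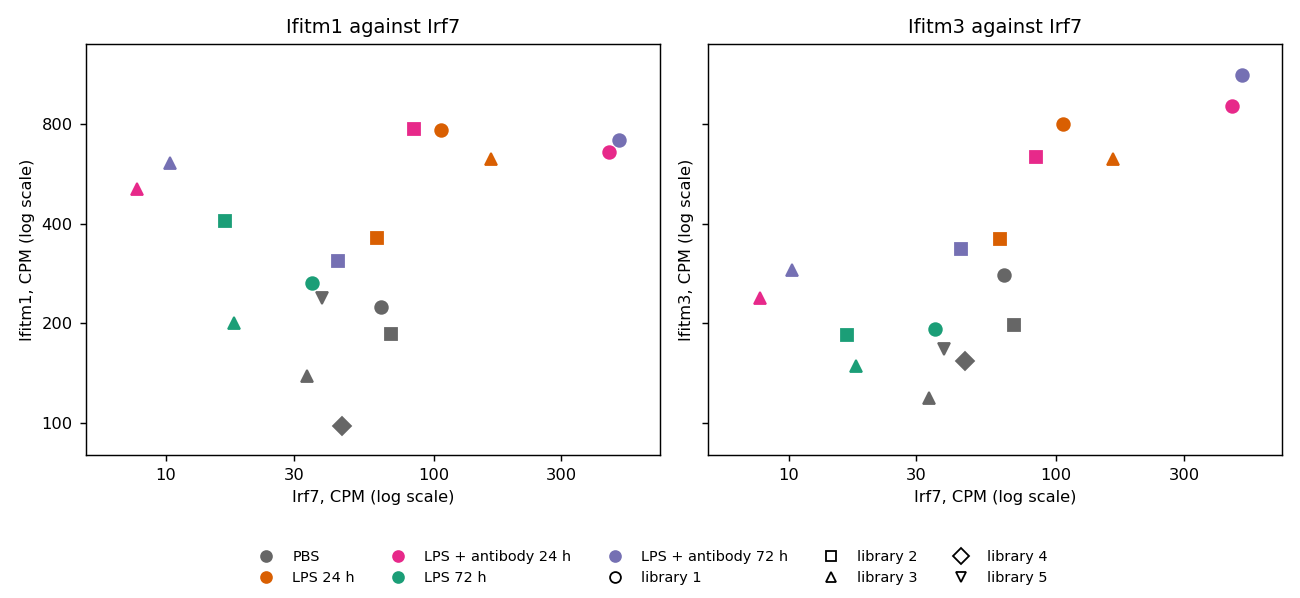
Ifitm1 (left) and Ifitm3 (right) against Irf7, in CPM on log axes, for 17 libraries; colours are groups and symbols library numbers. The Ifitm3 points climb with Irf7 from 7.80 to 493 CPM, whereas the antibody libraries numbered 3 hold 511 and 612 CPM of Ifitm1 at an Irf7 of 7.80 and 10.3 CPM.

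In the antibody groups the balance of Ifitm3 and Ifitm1 differed between libraries. In the libraries numbered 1, Ifitm3 exceeded Ifitm1 by 0.46 at 24 h and 0.65 at 72 h on the log2 scale. In the libraries numbered 3 the log2 ratio of Ifitm3 to Ifitm1 was -1.10 at 24 h and -1.07 at 72 h. The ratio stayed between -0.02 and 0.06 in the 3 LPS 24 h libraries, lay between -1.14 and -0.44 in LPS 72 h, and ran from -0.51 to 0.65 in PBS. The summed level of 26 type I interferon response genes, Irf7 included, followed the same library order with antibody. It was 3781 and 4277 CPM in the libraries numbered 1 and 513 and 565 CPM in those numbered 3, against 851 to 1203 CPM in PBS. The 16 interferon-gamma response genes summed to 4484 and 7463 CPM in the libraries numbered 1 and to 525 to 701 CPM in PBS. Markers of other cell types differed between these antibody libraries too. At 24 h and 72 h, the erythroid markers summed to 428 and 163 CPM in the libraries numbered 1 and to 18.6 and 7.50 CPM in those numbered 3. The basophil and mast cell markers summed to 740 and 315 CPM against 61.8 and 47.5 CPM, and the megakaryocyte markers to 263 and 254 CPM against 41.7 and 24.3 CPM. Their part in the Ifitm3 balance and in the relation to Irf7 was not tested.

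**Figure D5:**
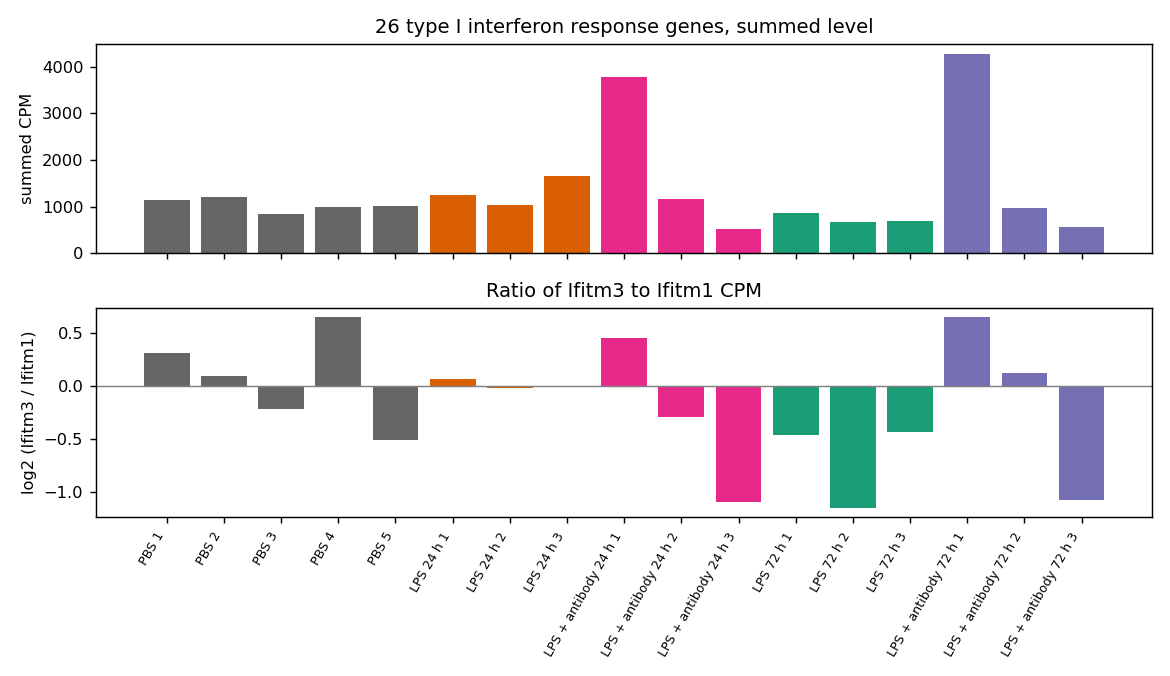
Top, summed CPM of 26 type I interferon response genes, Irf7 included, in each library. Bottom, log2 ratio of Ifitm3 to Ifitm1 CPM in the same libraries, coloured by group. The antibody libraries numbered 1 are the tallest bars above, at 3781 and 4277 CPM, and have ratios of 0.46 and 0.65 below, whereas those numbered 3 have ratios of -1.10 and -1.07.

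Few of the listed interferon genes passed the test, on lists that were written with earlier results known. The 26 type I response genes include Irf7. In LPS 24 h vs PBS, 37.6% of all genes were called in either direction, but 1 of 26 type I response genes rose and 0 fell, with a list median log2 change of 0.34 against -0.03 for all genes. Without LPS 24 h library 3 that median was 0.03. The 1 was Oas1a, an antiviral oligoadenylate synthetase gene, at 1.04 (SE 0.318, adjusted p = 0.0187, edgeR). Its libraries ran from 35.9 to 57.04 CPM in PBS and were at 123, 64.3 and 90.8 CPM in LPS 24 h, with no overlap, but without LPS 24 h library 1 it was not called. Of the 16 interferon-gamma response genes, 0 were called. With the replicate number as a block, in a fit of the 3 numbers that both groups share, 3 of 26 type I and 4 of 16 interferon-gamma genes were called. That fit called 4776 of all 14331 genes tested.

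With antibody at 24 h against PBS, 24.2% of all genes were called in either direction, 0 of 26 type I genes, and 2 of 16 interferon-gamma genes. These 2 were Gbp3, an interferon-inducible GTPase gene, at 1.28 (SE 0.376, adjusted p = 0.0248), and Cxcl9, a chemokine gene, at 4.51 (SE 1.59, adjusted p = 0.0497). At 72 h with antibody, 13.2% of genes were called, 0 of 26 type I genes and 5 of 16 interferon-gamma genes, all higher. The greatest of these changes were Cxcl10 at 5.48 (SE 1.41, adjusted p = 0.0229), Cxcl9 at 5.29 (SE 1.63, adjusted p = 0.0440) and Gbp2 at 3.75 (SE 1.16, adjusted p = 0.0459). Cxcl10 was at 429 CPM in 1 antibody library at 72 h and at 0.849 and 3.74 CPM in the other 2. Without library 1 of that group, 0 interferon-gamma genes were called at 72 h, and without library 1 at 24 h, 0 at 24 h. The type I estimates also rested on library 1. In both comparisons 25 of 26 were above 0, with a median of 0.66 at 24 h and 0.89 at 72 h. Without library 1 of the antibody group, 5 of 26 were above 0 at 24 h (median -0.43) and 2 of 26 at 72 h (median -0.54).

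Between LPS with and without antibody at 72 h, 15.1% of genes were called in either direction. All 26 type I genes had estimates above 0 (median 1.65, against 0.01 for all genes), but this rested on 1 library. The type I sums were 4277, 964 and 565 CPM with antibody and 866, 668 and 698 CPM without, so antibody library 3 lay below every LPS 72 h library. Without antibody library 1 at 72 h, 18 of the 26 estimates were above 0 and the median was 0.16. In the fit of all libraries 1 gene passed, Eif2ak2, which encodes the double-stranded RNA sensor kinase PKR, at 0.97 (SE 0.287, adjusted p = 0.0336, edgeR). Without that library 1, 0 were called. Between LPS 72 h and LPS 24 h, 31.1% of genes were called in either direction, and of the type I genes Oas1a fell by 1.47 (SE 0.372, adjusted p = 0.00775) and no other passed. Only 2 of the 26 type I estimates were above 0 there, with a median of -1.01 against 0.02 for all genes. In LPS 72 h vs PBS 0 of the 26 were above 0 (median -0.59, against -0.03 for all genes), and 0 were called.

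Genes for the interferon receptors and their kinases act upstream. In LPS 24 h vs PBS, 0 of the 7 receptor and kinase genes rose (19.1% of all genes were called higher) and 3 fell (18.5% were called lower), namely Ifnar1 (-0.48, SE 0.137, adjusted p = 0.0132), Ifnar2 (-0.48, SE 0.128, adjusted p = 0.00943) and Jak1 (-0.42, SE 0.130, adjusted p = 0.0198). Ifnar1 and Ifnar2 rose from LPS 24 h to LPS 72 h, by 0.66 (SE 0.152, adjusted p = 0.00457) and 0.72 (SE 0.141, adjusted p = 0.00173). With antibody at 72 h against PBS, Ifngr1, a subunit gene of the interferon-gamma receptor, rose by 0.61 (SE 0.165, adjusted p = 0.0278) and the other 6 genes were not called.

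Among other genes whose products restrict viruses at membranes or on entry, 5 of 7 were tested, and 2 rose in LPS 24 h vs PBS, where 19.1% of all genes were called higher. Bst2, which encodes tetherin, rose by 1.32 (SE 0.467, adjusted p = 0.0366), and Zmpste24, a protease gene whose product works with IFITM proteins, rose by 0.53 (SE 0.114, adjusted p = 0.00283). Zmpste24 was at 57.7 to 66.9 CPM in PBS, at 83.0, 95.03 and 91.0 CPM in LPS 24 h, and at 94.8, 88.9 and 102 CPM with antibody at 72 h. In LPS 72 h it was at 45.4, 58.8 and 62.3 CPM. Its 3 raised groups are those in which Ifitm1 and Ifitm2 were raised, and its antibody difference was larger at 72 h than at 24 h by 0.83 (SE 0.184, adjusted p = 0.0179). Marchf8, a membrane-bound ubiquitin ligase gene, fell from LPS 24 h to LPS 72 h by 1.04 (SE 0.217, adjusted p = 0.00251).

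Of 5 genes for enzymes that modify IFITM3 protein, 3 passed in LPS 24 h vs PBS, where 37.6% of all genes passed in either direction. Fyn, a kinase that phosphorylates IFITM3, fell by 0.85 (SE 0.224, adjusted p = 0.00857), Zdhhc20, which adds palmitate, fell by 0.34 (SE 0.117, adjusted p = 0.0305), and Kdm1a, a lysine demethylase, rose by 0.27 (SE 0.102, adjusted p = 0.0438). Zdhhc20 (0.60, SE 0.130, adjusted p = 0.00307) and Fyn (0.78, SE 0.245, adjusted p = 0.0248) rose from LPS 24 h to LPS 72 h. RNA levels do not show how IFITM3 protein was modified.

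The genes whose pattern was most like each member differed between members. Over the 17 libraries, log2 CPM of Ifitm3 went most closely with Sod2 (r = 0.978), the mitochondrial superoxide dismutase gene, Cfb (r = 0.963), which encodes complement factor B, and Rmdn3 (r = 0.961). Irf7 ranked 988 of 14915 genes for Ifitm3 (r = 0.760) and 4488 for Ifitm1 (r = 0.336). For Ifitm1 the closest were Vmp1 (r = 0.931), an autophagy gene, Ift57 (r = 0.905) and the glucose transporter gene Slc2a1 (r = 0.898). For Ifitm2 they were Gm45717 (r = 0.986), which shares exonic sequence with it, Gtf2h5 (r = 0.934) and Rabepk (r = 0.928). For Ifitm6 they were C5ar1 (r = 0.773), the complement C5a receptor gene, Slfn4 (r = 0.772) and Gm17133 (r = 0.746). C5ar1 and Gm17133 were near the floor of 3 counts, with group means of 0.276 to 0.755 CPM and of 0.386 to 0.679 CPM. Within the family, r was 0.885 between Ifitm1 and Ifitm2, 0.833 between Ifitm1 and Ifitm3, 0.798 between Ifitm2 and Ifitm3, and 0.333 to 0.431 between Ifitm6 and the others. These r describe shared differences between groups as well as between libraries.

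The table also held 3 Ifitm genes outside these 4. Ifitm5 and Ifitm10 were at most at 0.703 and 0.708 CPM in any library and were not tested. Ifitm7, on chromosome 16, was at 0.560 to 5.63 CPM. It was lower with antibody at 24 h than in PBS by a log2 value of -1.48 (SE 0.395, adjusted p = 0.0167, edgeR), and higher in LPS 72 h than in LPS 24 h by 1.19 (SE 0.409, adjusted p = 0.0367). Ifitm7 shares 10.9% of its exonic bases with a gene on the opposite strand.

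Of the 10 nearest protein-coding genes outside the Ifitm family in the RefSeq gene table, 5 on each side, 8 were tested. Called genes in LPS 24 h vs PBS numbered 3 of the 8, against 37.6% of all genes. The proteasome subunit gene Psmd13 rose by 1.04 (SE 0.192, adjusted p = 0.00120), the mitochondrial deacetylase gene Sirt3 fell by 0.61 (SE 0.157, adjusted p = 0.00733), and Sigirr, an inhibitor of interleukin-1 and Toll-like receptor signalling, fell by 0.69 (SE 0.187, adjusted p = 0.0101). With antibody at 72 h against PBS, 0 of the 8 rose and 3 fell (Pgghg, Sirt3 and Sigirr), where 6.81% of all genes were called higher and 6.43% lower.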

How the data were processed

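Per the file headers, the authors deposited 1 table of raw counts, whole-number reads per gene symbol in 17 libraries. The submitters' processing notes list HISAT2 2.2.0, Subread, featureCounts 2.1.1, R 4.3.2, DESeq2 and build GRCm38, without roles. The annotation, strandedness and handling of multi-mapping or overlapping reads are not given in the sources used here, so counts of Ifitm genes that share sequence are uncertain. Counts were fitted with edgeR 4.0.16 (R 4.3.3; filterByExpr with minimum count 10, TMM, quasi-likelihood F test, 1 mean per group over all 17 libraries), with Benjamini-Hochberg adjustment over all 14920 genes tested and calls at adjusted p under 0.05. SEs are the absolute log2 change divided by the square root of F. Libraries were grouped by their titles, and all 17 columns matched. Library totals of 10516722 to 16006001 counts limit low genes: 3 counts are the floor.

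Named genes were the members, other Ifitm genes, Irf7, up to 3 called genes per list, the 3 genes with the highest r per member and 5 neighbours on each side. The members and all lists were chosen with earlier results of these data known. Mx1 and Mx2 were not analysed here. Marker lists of progenitors and of 8 other cell types are given as sums or counts of calls. Numbers were taken to pair libraries where the deviations of every same-numbered pair correlated above 0.1. This held only for LPS 24 h vs PBS (0.191, 0.188 and 0.158). Between the antibody groups the values were 0.723, -0.02 and 0.697. The calls in LPS 24 h vs PBS nevertheless come from the fit without numbers. Of the gene lists, only the 2 interferon response lists were also counted with the number as a block. Planned tests of the members in comparisons that use the 24 h libraries are not read, since those libraries chose the members. No 2 libraries were identical (highest correlation of log2 counts 0.994). Alternatives were DESeq2 1.42.0 size factors and Wald test, upper-quartile factors, no filter, the compared groups alone, a replicate block and leaving out libraries.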

Additional observations from a re-analysis of the deposited data

Results flagged for a closer look

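The Ifitm6 level of PBS library 2, 18.3 CPM, stood apart from the other 4 PBS libraries (1.40 to 2.58 CPM). Its gap to the nearest was 0.930 of the whole range, above Dixon's 95% critical value of 0.71 for 5 samples. Chance flags about 1 in 20 groups. Ifitm1, Ifitm2 and Ifitm3 did not stand out in this way in PBS, and groups of 3 were not tested (8 genes examined, Irf7 and the other Ifitm genes included). The neutrophil marker sum of that library was 1589 CPM, against 40.2 to 259 CPM, and its part in the Ifitm6 level was not tested.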

How the results depend on the processing

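Alternatives named as planned were set with earlier results known; leaving out both antibody libraries numbered 1, and list counts and medians without single libraries, were chosen after seeing the data. Ifitm1, Ifitm2 and Ifitm3 stayed above PBS in LPS 24 h and in both antibody groups under every alternative run. Leaving out 1 library in turn gave 0.033 to 1.60 for Ifitm6 in LPS 24 h vs PBS and 0.17 to 1.98 with antibody at 24 h. Upper-quartile factors gave 0.37 for Ifitm2 with antibody at 24 h.

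With antibody at 72 h vs PBS, 3 members were called, against 0 with the replicate block (adjusted p = 0.119 for Ifitm1 and Ifitm3, 0.125 for Ifitm2), 1 without both antibody libraries numbered 1 and 1 to 3 when leaving out 1 library. With that block 0 of all 14324 genes tested passed, against 1975 of 14920 in the main fit, so its 0 is not particular to the members. For LPS with antibody vs LPS at 72 h, 1 member was called, against 0 in a fit of the groups alone, 0 with the replicate block, 0 without both libraries numbered 1 and 0 to 2 when leaving out 1 library. The block called 344 of 13855 genes in that comparison, where the main fit called 2256 of 14920. For LPS 72 h vs LPS 24 h, which is not independent of the choice of members, their calls are not read. The log2 differences of Ifitm1, Ifitm2 and Ifitm3 stayed below 0 there under every alternative run. Leaving out 1 library gave -1.34 to -0.75 for Ifitm1, -0.45 to -0.14 for Ifitm2 and -2.03 to -1.48 for Ifitm3. Numbers were not shown to pair the libraries in these comparisons, and the block uses fewer libraries against PBS. The cause of these changes was not tested.

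Signs turned only for differences that were not called. Ifitm6 with antibody at 72 h vs PBS was -0.046 with upper-quartile factors and -0.23 without both libraries numbered 1. Ifitm3 with vs without antibody at 24 h was 0.027 with upper-quartile factors, 0.0024 without the filter and 0.024 in a fit of the groups alone. Ifitm6 in LPS 72 h vs LPS 24 h was 0.0015 with upper-quartile factors. Ifitm2 with antibody at 72 h vs 24 h was -0.0036 with DESeq2 size factors, -0.0036 by the Wald test, -0.00039 with the block and -0.080 without both libraries numbered 1.

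Leaving out 1 library in turn, LPS 72 h vs PBS ran from -0.21 to 0.12 for Ifitm3 and -0.21 to 1.48 for Ifitm6, and antibody at 72 h vs PBS from -0.23 to 1.38 for Ifitm6, both highest Ifitm6 values being those without PBS library 2. With vs without antibody at 24 h ran from -0.10 to 0.41 for Ifitm1, -0.16 to 0.13 for Ifitm2, -0.45 to 0.37 for Ifitm3 and -0.11 to 0.77 for Ifitm6, and at 72 h from -0.37 to 0.31 for Ifitm6. LPS 72 h vs LPS 24 h ran from -0.50 to 0.13 for Ifitm6. Antibody at 72 h vs 24 h ran from -0.50 to 0.034 for Ifitm1, -0.074 to 0.056 for Ifitm2 and -0.93 to 0.42 for Ifitm3, and the change in the antibody difference from -0.89 to 0.013 for Ifitm6.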
